A study of Mus musculus with 16 samples.

Results

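The genes described here are 46 cell-cycle genes taken by name from a list, with Mki67 and Top2a as the markers of the group. All 46 were matched among the 50600 genes counted in every library. They were grouped here by main role, as 16 of G1/S, 5 of S phase and 25 of mitosis. Ccna2, a cyclin of S phase and G2, was placed with mitosis, and subunits of the MCM helicase with G1/S. The study measured RNA from both alleles of hybrid mouse neural progenitor cells (NPCs) and of astrocytes made from such cells. Its 16 libraries fall into 5 astrocyte libraries, 3 NPC libraries with poly(A) enrichment and 8 NPC libraries with ribosomal RNA depletion. The question asked here is how far the level of these genes fell in astrocytes, what was left in each clone, and from which allele.

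All cells came from embryonic stem cells of the cross 129Sv x Cast/EiJ, and every line was a clone picked after limiting dilution. NPCs were kept in N2B27 medium with EGF and FGF2 at 10 ng/mL each. For astrocytes, NPC clones were held for 48 h in N2B27 with FGF2 at 1 ng/mL and BMP4 at 10 ng/mL. The astrocyte clones were Astro_129, Astro_C2 and Astro_G4, which are female, and Astro_mC3 and Astro_mE6, which are male. The poly(A) NPC clones were NPC_F5, which is female, and NPC_mG2 and NPC_mG6, which are male. The 4 male clones Ch3, Ch5, Ch7 and Ch8 gave 2 libraries each after ribosomal RNA depletion. Each astrocyte and poly(A) NPC clone gave 1 library, and no clone was in both groups. The codes in the library titles also split by cell type, and among astrocytes Astro_C2 and Astro_G4 share a code stem that the other 3 do not have. What the codes stand for is not given in the sources used here. Reads counted per library ran from 78257443 to 93963293 in astrocytes, from 69925081 to 105892734 in poly(A) NPCs and from 20871111 to 30920672 in the Ch libraries. Reads assigned to an allele ran from 21555315 to 32518327 in the 8 libraries with poly(A) enrichment and from 4193927 to 5971768 in the Ch libraries.

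A cell that divides passes through G1, copies its DNA in S phase and separates the copies in mitosis. Cyclin E and E2F factors drive entry into S phase, the MCM ring opens the DNA at licensed origins, and cyclin B with CDK1 starts mitosis. NPCs grown with EGF and FGF2 divide, whereas astrocytes made with BMP4 leave the cycle, so that genes of this kind are a usual readout of the exit.

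The markers of the group, themselves members of it, are given first. Values below are CPM, read counts scaled to library size with TMM factors, in the order Astro_129, Astro_C2, Astro_G4, Astro_mC3, Astro_mE6 for astrocytes and NPC_F5, NPC_mG2, NPC_mG6 for poly(A) NPCs. Mki67 (ENSMUSG00000031004), which coats mitotic chromosomes, had a CPM of 1.08, 2.02, 0.622, 2.29 and 0.487 in astrocytes and 426, 477 and 445 in poly(A) NPCs. The groups were far apart, with Astro_mC3 and Astro_C2 the highest astrocyte libraries, and the fitted change was a log2 fold change of −8.43 (95% interval −9.77 to −7.09, adjusted p = 7.8e-05). Top2a, which untangles DNA before chromosomes separate, stood at 5.47, 11.5, 7.91, 4.46 and 3.32 in astrocytes and 458, 513 and 425 in poly(A) NPCs. All 5 astrocyte libraries were below all 3 NPC libraries, with a log2 fold change of −6.16 (95% interval −7.10 to −5.21, adjusted p = 7.3e-05). The summed CPM of the 46 genes was 505, 410, 392, 328 and 359 in astrocytes and 5411, 4908 and 4233 in poly(A) NPCs. In the 8 Ch libraries it ran from 4440 to 5997. Top2a had the highest mean CPM of the members in poly(A) NPCs and Rrm1 in astrocytes, and 0 of the 46 were below 1 CPM in all 8 astrocyte and poly(A) NPC libraries. These are bulk libraries, in which fewer dividing cells and less RNA per cell cannot be told apart.

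Marker lists of cell types were read beside these values. Over all 18192 genes tested, edgeR called 12.6% lower in astrocytes and 13% higher at an adjusted p under 0.05. These shares are the background of the edgeR counts at that threshold below. For the counts by DESeq2 or at an unadjusted p, no share of all genes is given here. Of 8 astrocyte markers, 3 were higher in astrocytes (Gfap, Aqp4 and Slc1a2) and 1 was lower (Aldh1l1). DESeq2 called 5 higher and 1 lower, and 4 were higher at an unadjusted p under 0.05 in edgeR. Gfap, an astrocyte filament protein, had a CPM of 1977, 65.4, 224, 165 and 254 in astrocytes and 0.669, 2.12 and 1.82 in poly(A) NPCs, with a log2 fold change of 8.45, adjusted p = 0.00674. Astro_129 was the highest library by far, and without it the log2 fold change of Gfap was 6.86. The summed CPM of the astrocyte list was 3338, 1459, 3708, 4616 and 4975 in astrocytes and 1506, 1813 and 1119 in poly(A) NPCs. Astro_C2 thus lay within the range of the NPC libraries on this sum. Slc1a3 was the top gene of the list, although Gfap made up 1977 of the 3338 CPM in Astro_129. Of 8 progenitor markers, 2 were lower in astrocytes, Nes (log2 fold change −3.79, adjusted p = 9.7e-05) and Olig2 (−2.42, adjusted p = 0.00597). DESeq2 called 4 of the 8 lower, and at an unadjusted p under 0.05 in edgeR 4 were lower and 1 higher. The summed CPM of that list, led by Vim, was 1409, 1389, 1505, 2075 and 2551 in astrocytes and 6089, 5477 and 4663 in poly(A) NPCs. The call of Aldh1l1 was lost without Astro_G4, Astro_mC3 or any of the 3 NPC libraries.

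Of 6 neuron markers, 1 was higher in astrocytes, Snap25, with a log2 fold change of 4.09, adjusted p = 0.0346. The call of Snap25 was lost without Astro_C2, NPC_mG2 or NPC_mG6, and its log2 fold change was 3.28 without Astro_129 and 5.29 without NPC_F5. The neuron list, led by Map2, summed to 823, 1361, 651, 630 and 465 CPM in astrocytes and 975, 1490 and 1791 in poly(A) NPCs. Rbfox3 was at 0.0429, 0.159, 0.700, 0.482 and 0.653 CPM in astrocytes and reached at least 1 CPM in a poly(A) NPC library. For fibroblasts, 5 of 6 markers could be tested and 1 was higher, Col1a1, with 10.5, 211, 34.0, 30.1 and 2.39 CPM in astrocytes and 0.455, 0.756 and 0.591 in poly(A) NPCs. Astro_C2 carried most of it, and the call was lost without any one of the 3 NPC libraries. The fibroblast list summed to 19.3, 219, 34.9, 33.3 and 4.10 CPM in astrocytes, where Col1a1 led it, and 2.87, 12.8 and 7.30 in poly(A) NPCs. Col1a2 was below 1 CPM throughout. By DESeq2 the counts were 1 lower and 1 higher for neurons, 1 lower and 2 higher for fibroblasts, and 3 lower and 1 higher for pluripotency. At an unadjusted p under 0.05 in edgeR, 2 were lower and 1 higher for neurons. For fibroblasts 1 was lower and 2 higher at that threshold, and for pluripotency 2 were lower and 1 higher. Of 6 microglia markers 2 could be tested, and 0 were called by edgeR, with 1 higher at an unadjusted p under 0.05 and 1 by DESeq2. The microglia list, led by P2ry12, summed to 1.85, 10.4, 11.5, 2.13 and 1.85 and 1.27, 3.25 and 10.8 CPM, with Itgam and Tyrobp at 0 in all 8 libraries. Among 6 pluripotency markers, which summed to 2.53, 2.196, 3.98, 4.28 and 3.83 and 5.83, 3.82 and 3.74 CPM with Esrrb the most abundant, 5 could be tested. Pou5f1 and Dppa5a were lower and Tdgf1 was higher, the last of these not without NPC_F5 or NPC_mG2. All 3 passed the filter on low counts only through the group where they were high, and had to differ. The part of these marker levels in the values of the cell-cycle genes was not tested.

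In the comparison of astrocytes with poly(A) NPCs, all 46 genes were lower at an adjusted p under 0.05, beside 2284 of 18192 genes tested (12.6%). The 46 were chosen with earlier results of these data known. Genes called higher by edgeR were 2360 of those tested (13%) and 0 of the 46, with 0 at an unadjusted p under 0.05 and 0 by DESeq2. Every astrocyte library was below every poly(A) NPC library for all 46, beside 2957 of all genes (16.3%). The median log2 fold change was −5.05, a 33.1-fold lower level, against 0.08 over all genes tested. The middle of the distribution ran from −6.01 to −3.20 between quartiles. On the counts of the astrocyte libraries alone, 44 of the 46 passed the filter on low counts. The other 2, E2f8 and Aurkb, passed only through the NPC libraries, where they were high, and had to differ. The smallest number of reads of a member in an astrocyte library was 3, for E2f8 in Astro_mE6.

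The number of genes called over the whole comparison rested on the few NPC libraries. It was 4644 with all libraries, 2667 without NPC_F5, 2269 without NPC_mG2 and 3030 without NPC_mG6. Of the cell-cycle genes, 44 to 46 were called in each of these fits and in those without an astrocyte library. Only Cdk2 and Cdt1 among them lost their call when a library was left out. The plot of CPM by gene and library shows the separation of the groups for each gene.

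**Figure D1:**
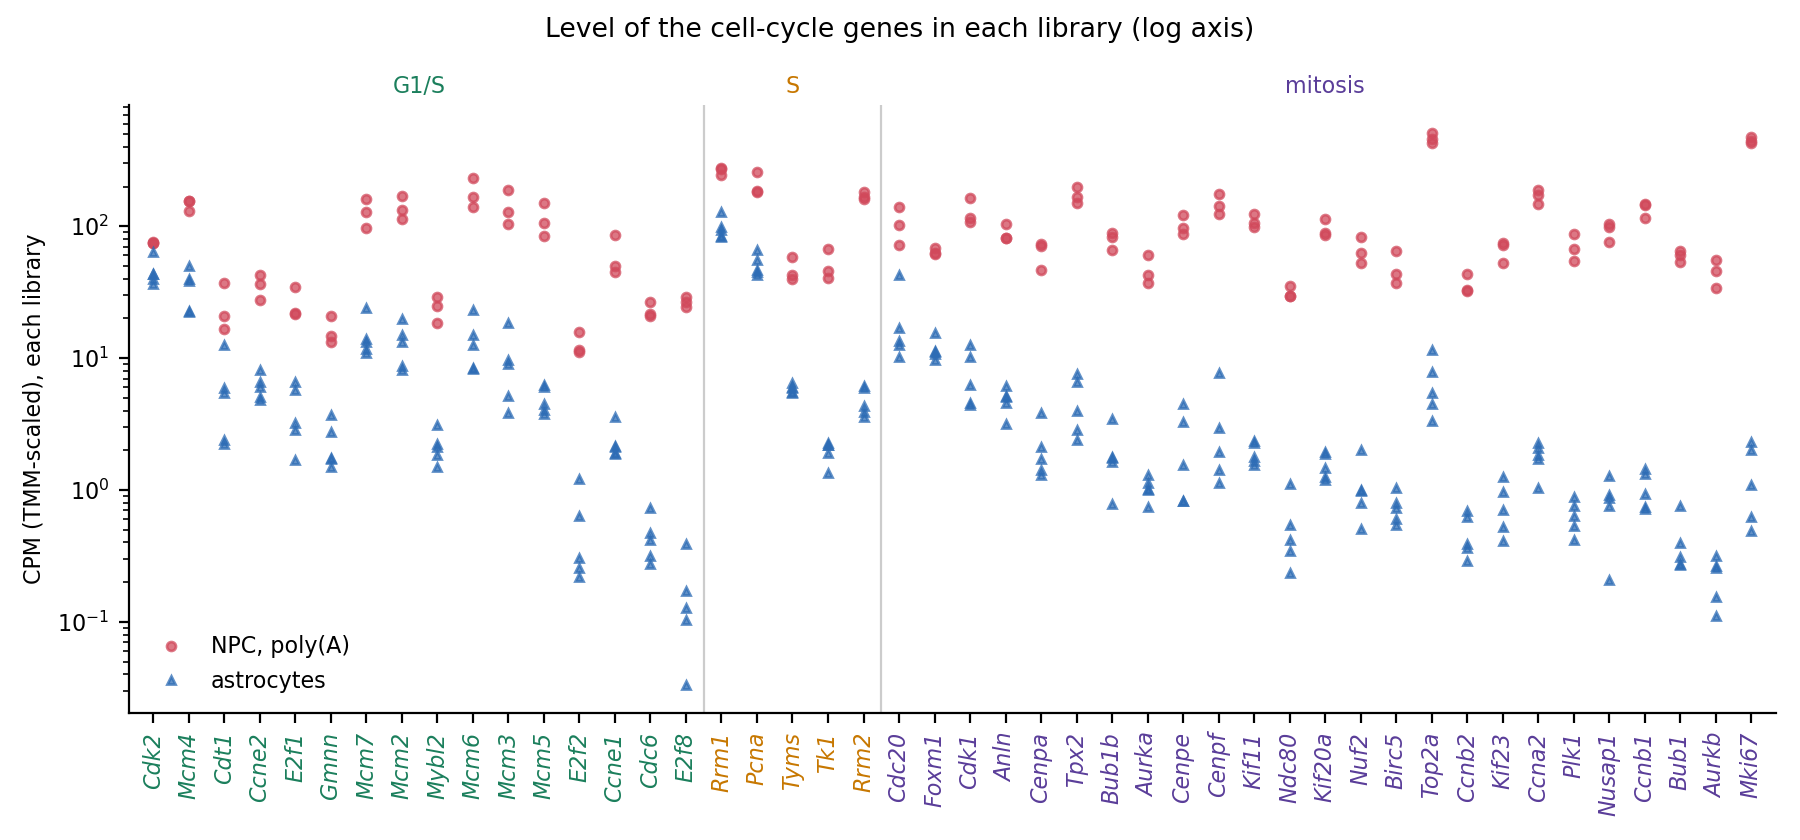
CPM (log axis) of each of the 46 genes in each poly(A) NPC library (circles) and each astrocyte library (triangles), ordered by phase and by size of the change. Every triangle lies below every circle of its gene, and the gap is narrowest for Cdk2.

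The 16 genes of G1/S had a median log2 fold change of −3.45, a 10.9-fold lower level. E2f8, a repressor of the E2F family that limits its own class of targets, had the largest fall in this phase. Its CPM was 0.386, 0.172, 0.104, 0.127 and 0.0332 in astrocytes and 29.3, 26.6 and 24.5 in poly(A) NPCs, with a log2 fold change of −7.33, given without a p value because the filter fixed its outcome. Astro_129 was the highest astrocyte clone, and without it the log2 fold change was −7.93. Cdc6, which loads the MCM ring at origins, had a CPM of 0.729, 0.317, 0.415, 0.469 and 0.277 in astrocytes and 26.5, 21.6 and 20.8 in poly(A) NPCs. The groups did not overlap and Astro_129 was again highest, with a log2 fold change of −5.70 (95% interval −6.54 to −4.85, adjusted p = 6.5e-05). Ccne1 encodes cyclin E1, the partner of CDK2 at the start of S phase. It was at 1.89, 2.12, 1.91, 3.59 and 2.15 CPM in astrocytes and 86.4, 50.04 and 44.9 in poly(A) NPCs, a log2 fold change of −4.70 (95% interval −5.43 to −3.97, adjusted p = 7.3e-05). Here Astro_mC3 was the highest astrocyte clone and NPC_F5 the highest progenitor clone.

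The 3 smallest changes of this phase were those of Cdk2, Mcm4 and Cdt1. Cdk2, the kinase bound by cyclins E and A, had a CPM of 64.2, 43.1, 43.4, 39.4 and 36.2 in astrocytes and 75.8, 74.4 and 74.0 in poly(A) NPCs. Astro_129 came close to the NPC libraries without reaching them, and the fit gave a log2 fold change of −0.72 (95% interval −1.18 to −0.27, adjusted p = 0.0308). Cdk2 was not called without Astro_mC3 (adjusted p = 0.0696), NPC_F5 (0.0841), NPC_mG2 (0.0926) or NPC_mG6 (0.0567), with a log2 fold change from −0.79 to −0.67. Mcm4, a subunit of the MCM ring, was at 38.5, 39.7, 50.3, 22.8 and 22.4 CPM in astrocytes and 156, 154 and 130 in poly(A) NPCs, a log2 fold change of −2.08 (95% interval −2.72 to −1.44, adjusted p = 0.00196). Cdt1, the loading factor that geminin blocks, had a CPM of 12.6, 5.93, 5.46, 2.40 and 2.22 in astrocytes and 37.2, 20.9 and 16.7 in poly(A) NPCs. The spread was wide on both sides, with Astro_129 and NPC_F5 highest, and the fit gave a log2 fold change of −2.12 (95% interval −3.43 to −0.81, adjusted p = 0.0289). Its call was lost without Astro_G4 (adjusted p = 0.0526), Astro_mC3 (0.0504), NPC_F5 (0.112) or NPC_mG2 (0.0685). With the Ch clones in place of the poly(A) NPC libraries its direction turned, at a log2 fold change of 0.26 (adjusted p = 0.652). In the Ch libraries Cdt1 ran from 3.58 to 4.94 CPM, whereas Astro_129, Astro_C2 and Astro_G4 were above that range.

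By role, cyclins E and CDK2 had a median log2 fold change of −2.54 over 3 genes, and E2F and MYB factors one of −4.05 over 4. The other members of these roles, Ccne2, E2f1, E2f2 and Mybl2, had log2 fold changes of −2.54, −2.70, −4.61 and −3.49. The 9 genes that license origins had a median of −3.41. Among subunits of the MCM ring, Mcm5 fell most (−4.53), followed by Mcm3 (−3.92), Mcm6 (−3.73), Mcm2 (−3.41), Mcm7 (−3.13) and Mcm4. The ring is built with each of these 6 subunits in equal number, and their residual level differed. The astrocyte mean was 4.32% of the poly(A) NPC mean for Mcm5 and 23.7% for Mcm4. Gmnn, which encodes geminin, had a log2 fold change of −2.84.

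The 5 genes of S phase had a median log2 fold change of −3.00, a 7.99-fold lower level. Rrm2, the cell-cycle subunit of ribonucleotide reductase, had a CPM of 3.57, 3.88, 5.92, 6.13 and 4.34 in astrocytes and 183, 168 and 160 in poly(A) NPCs. The libraries of each group lay close together, and the change was a log2 fold change of −5.16 (95% interval −5.68 to −4.63, adjusted p = 1.8e-05). Rrm1, the subunit that carries the active site of the same enzyme, was at 127, 94.2, 98.5, 83.5 and 84.8 CPM in astrocytes and 278, 272 and 244 in poly(A) NPCs. Astro_129 was the highest astrocyte clone and the groups did not overlap, with a log2 fold change of −1.44 (95% interval −1.83 to −1.04, adjusted p = 0.00116). Per kilobase of exon (GENCODE vM1 lengths, of an earlier build than the counts), Rrm1 and Rrm2 had a mean CPM of 66.2 and 61.4 in poly(A) NPCs and of 24.4 and 1.72 in astrocytes. On that scale the subunits were near each other in progenitors and far apart in astrocytes.

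Tk1, thymidine kinase, was at 2.27, 2.196, 2.18, 1.36 and 1.92 CPM in astrocytes and 67.7, 45.5 and 40.7 in poly(A) NPCs. Astro_mC3 was lowest and NPC_F5 highest, with a log2 fold change of −4.69 (95% interval −5.29 to −4.09, adjusted p = 3.1e-05). Tyms, which makes thymidylate, stood at 6.42, 5.97, 6.02, 5.51 and 5.46 CPM in astrocytes and 58.9, 42.3 and 39.7 in poly(A) NPCs, a log2 fold change of −3.00 (95% interval −3.43 to −2.57, adjusted p = 5.0e-05). Its 5 astrocyte values were nearly equal. Pcna, the clamp that holds DNA polymerase on its template, had a CPM of 66.4, 42.5, 45.3, 46.3 and 55.8 in astrocytes and 258, 186 and 182 in poly(A) NPCs, a log2 fold change of −2.03 (95% interval −2.48 to −1.57, adjusted p = 4.2e-04). Astro_129 was the highest astrocyte clone for Pcna, as it was for 4 of the 5 genes of this phase.

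The 25 mitotic genes had a median log2 fold change of −5.95, a 62.0-fold lower level. The largest fall against poly(A) NPCs was that of Mki67, given above. With the Ch clones as the reference Mki67 had a log2 fold change of −7.66 and Aurkb one of −8.55, so that Mki67 was not first there. Aurkb, the kinase of the chromosomal passenger complex, had a CPM of 0.257, 0.317, 0.156, 0.266 and 0.111 in astrocytes and 55.0, 45.7 and 33.8 in poly(A) NPCs. No astrocyte library reached 1 CPM, and the log2 fold change was −7.65, again without a p value. Bub1, a spindle checkpoint kinase, was at 0.268, 0.754, 0.311, 0.393 and 0.277 CPM in astrocytes and 60.9, 64.6 and 53.4 in poly(A) NPCs. Astro_C2 was the highest astrocyte clone, with a log2 fold change of −7.22 (95% interval −8.13 to −6.30, adjusted p = 3.0e-05). The smallest falls were those of Cdc20, Foxm1 and Cdk1. Cdc20, the activator of the anaphase-promoting complex, had a CPM of 12.6, 16.8, 10.2, 13.5 and 42.4 in astrocytes and 140, 101 and 72.2 in poly(A) NPCs. Astro_mE6 stood above the other astrocyte clones but below every progenitor clone, with a log2 fold change of −2.45 (95% interval −3.52 to −1.37, adjusted p = 0.00813).

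Foxm1, a transcription factor of genes of G2 and mitosis, was at 11.3, 15.5, 11.0, 10.7 and 9.69 CPM in astrocytes and 67.8, 62.7 and 61.2 in poly(A) NPCs. The astrocyte values lay close together with Astro_C2 highest, and the change was a log2 fold change of −2.45 (95% interval −2.88 to −2.03, adjusted p = 1.0e-04). Cdk1, the kinase that starts mitosis, had a CPM of 12.6, 10.1, 4.58, 6.25 and 4.44 in astrocytes and 164, 114 and 107 in poly(A) NPCs, a log2 fold change of −4.08 (95% interval −4.97 to −3.19, adjusted p = 3.5e-04). Its level was highest in Astro_129 and Astro_C2. The cyclins that bind it fell further, by log2 fold changes of −6.56 for Ccna2, −7.04 for Ccnb1 and −6.25 for Ccnb2. Cyclins, CDK1 and their regulators had a median of −5.16 over 6 genes. Kinases and checkpoint genes (Plk1, Aurka, Aurkb, Birc5, Bub1 and Bub1b) had a median of −6.39. Centromere and kinetochore genes (Cenpa, Cenpe, Cenpf, Nuf2 and Ndc80) had a median of −5.60, and those of the spindle and of cytokinesis (Kif11, Kif20a, Kif23, Tpx2, Nusap1 and Anln) one of −5.89. Cenpf, which binds kinetochores, was at 1.14, 1.43, 2.93, 1.95 and 7.73 CPM in astrocytes, and without Astro_mE6 its log2 fold change of −5.60 became −6.34. Per kilobase of exon, Pcna had the highest mean CPM of all members in poly(A) NPCs (87.0) and Rrm1 in astrocytes (24.4). The lowest on that scale were E2f2 in poly(A) NPCs (2.63) and E2f8 in astrocytes (0.0302).

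**Figure D2:**
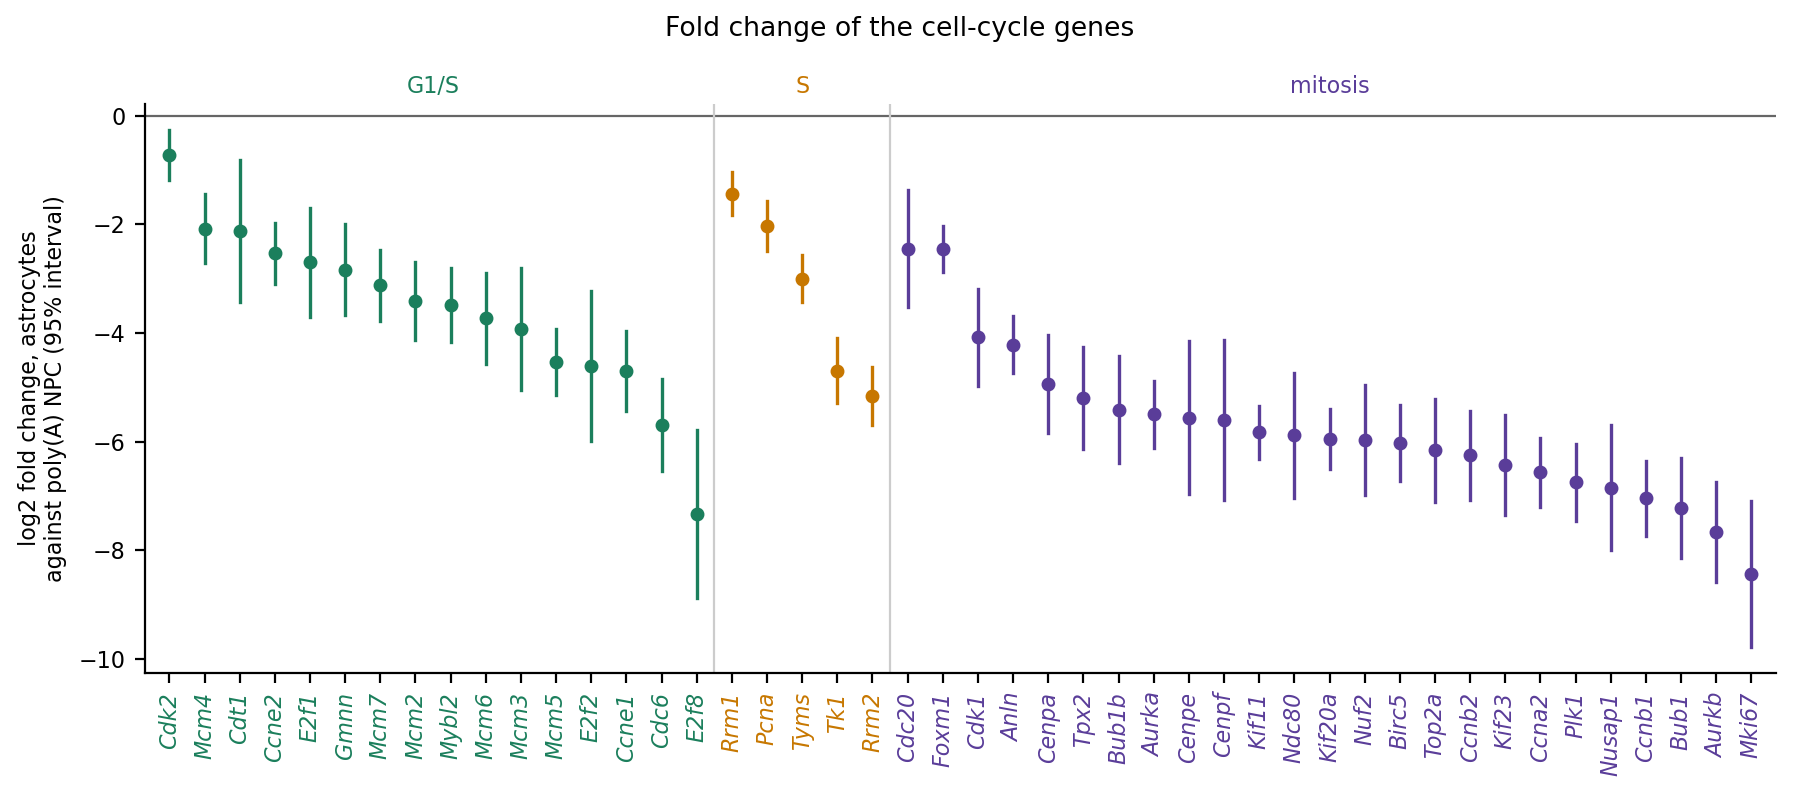
Log2 fold change of each of the 46 genes in 5 astrocyte libraries against 3 poly(A) NPC libraries (points), with 95% intervals (bars), colored by phase. Mitotic genes lie mostly below −5, while Cdk2 at −0.72 lies nearest to 0.

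Promoters of some of these genes are shown because known sites of cell-cycle control can be read in them. E2F sites are usual in genes of G1/S, and CHR elements with CCAAT boxes in genes of mitosis. Of the 46 genes, 38 were in a RefSeq promoter table of GRCm38.p6, with 40 promoters among 32851. Sequences are the 250 bases before a transcript start of that table, written 5′ to 3′ on the strand of the gene. By the gene limits used here the window of Cdc6 lies inside the gene, and those of Mki67 and Top2a overlap its first bases. Shown are, for each phase, the members in that table with the largest and smallest fall whose window overlaps no other gene, and Top2a. Capitals mark CHR elements (TTTGAA or TTTAAA), E2F sites (GCGGGAA or TTTGGCGC) and CCAAT boxes on either strand. Positions are chr11:98907901-98908150 for Cdc6, chr8:122567765-122568014 for Cdt1, chr12:24708004-24708253 for Rrm2 and chr7:102441445-102441694 for Rrm1, all on the plus strand. Those of Mki67 (chr7:135716380-135716629), Cdc20 (chr4:118437344-118437593) and Top2a (chr11:99024190-99024439) are on the minus strand.
Cdc6: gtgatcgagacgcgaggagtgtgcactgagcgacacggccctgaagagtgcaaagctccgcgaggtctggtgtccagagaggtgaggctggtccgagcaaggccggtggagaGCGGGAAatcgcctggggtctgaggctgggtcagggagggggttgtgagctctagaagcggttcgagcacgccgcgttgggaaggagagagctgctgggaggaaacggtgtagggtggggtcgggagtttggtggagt
Cdt1: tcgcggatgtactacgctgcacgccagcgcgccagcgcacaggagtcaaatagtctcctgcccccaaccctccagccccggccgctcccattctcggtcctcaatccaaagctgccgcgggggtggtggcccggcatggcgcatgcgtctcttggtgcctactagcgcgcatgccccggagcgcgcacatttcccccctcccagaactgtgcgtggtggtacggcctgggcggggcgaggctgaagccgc
Rrm2: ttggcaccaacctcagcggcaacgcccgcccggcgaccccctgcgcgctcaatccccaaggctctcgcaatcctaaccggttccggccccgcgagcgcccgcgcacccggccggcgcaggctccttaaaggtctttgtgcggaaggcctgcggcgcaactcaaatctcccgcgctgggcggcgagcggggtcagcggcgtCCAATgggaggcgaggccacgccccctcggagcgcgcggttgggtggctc
Rrm1: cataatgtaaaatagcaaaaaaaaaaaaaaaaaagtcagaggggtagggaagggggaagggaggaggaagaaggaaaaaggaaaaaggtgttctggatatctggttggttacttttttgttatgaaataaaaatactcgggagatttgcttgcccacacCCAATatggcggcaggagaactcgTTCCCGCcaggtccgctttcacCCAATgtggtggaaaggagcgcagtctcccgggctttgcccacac
Mki67: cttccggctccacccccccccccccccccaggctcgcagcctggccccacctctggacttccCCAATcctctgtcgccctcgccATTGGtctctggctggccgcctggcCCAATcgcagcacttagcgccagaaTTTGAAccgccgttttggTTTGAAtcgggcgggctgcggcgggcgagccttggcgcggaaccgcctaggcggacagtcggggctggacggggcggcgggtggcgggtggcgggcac
Cdc20: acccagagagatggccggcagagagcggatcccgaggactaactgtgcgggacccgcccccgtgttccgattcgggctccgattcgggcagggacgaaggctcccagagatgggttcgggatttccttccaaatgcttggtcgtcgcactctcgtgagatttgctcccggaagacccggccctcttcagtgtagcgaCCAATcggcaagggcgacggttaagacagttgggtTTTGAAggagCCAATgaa
Top2a: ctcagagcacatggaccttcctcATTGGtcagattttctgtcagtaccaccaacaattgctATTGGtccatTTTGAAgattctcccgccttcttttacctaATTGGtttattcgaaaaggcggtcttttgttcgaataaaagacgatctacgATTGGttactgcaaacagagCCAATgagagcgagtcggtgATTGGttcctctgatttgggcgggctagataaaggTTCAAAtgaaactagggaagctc

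Cdc6 had 1 E2F site and Cdt1 none of the motifs. Rrm2 had 1 CCAAT box, whereas Rrm1 had 2 and 1 E2F site. Mki67 had 2 CHR elements and 3 CCAAT boxes, Cdc20 had 1 and 2, and Top2a had 2 and 6. In these 7 promoters no marked motif overlapped another. A CCAAT box stood in 28 of the 40 promoters of members (70.0%) and in 33.8% of all promoters. TTTGAA stood in 9 of 40 (22.5%) and in 16% of all, TTTAAA in 8 of 40 (20%) and in 12.1% of all. By phase, either CHR element was in 11 of 20 mitotic promoters, 1 of 5 of S phase and 5 of 15 of G1/S, beside 25.2% of all promoters. GCGGGAA was in 5 of 40 (12.5%) and 3.82% of all promoters, and TTTGGCGC in 2 of 40 (5%) and 0.417% of all. Either E2F site was in 6 of 15 promoters of G1/S genes, 1 of 5 of S phase and 0 of 20 of mitosis, beside 4.19% of all. These are counts of letters and say nothing of binding.

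Genes outside the group that act in the same pathways were read from named lists. Of 11 CDK inhibitors, D cyclins and their kinases with a match, 3 were lower and 1 was higher in astrocytes. Ccnd1, cyclin D1, had a CPM of 131, 246, 27.3, 41.8 and 36.7 in astrocytes and 1328, 1410 and 2805 in poly(A) NPCs, a log2 fold change of −4.26, adjusted p = 0.00611. It was highest in NPC_mG6, and without Astro_C2 the log2 fold change was −5.00. Cdk4 and Cdk6, the kinases of D cyclins, had log2 fold changes of −1.61, adjusted p = 0.00819, and −3.86, adjusted p = 0.00840, the latter −2.97 without NPC_mG6 and −5.22 with the Ch clones as the reference. Cdkn1b, the inhibitor p27, was at 318, 219, 206, 195 and 192 CPM in astrocytes and 85.1, 79.8 and 79.1 in poly(A) NPCs, a log2 fold change of 1.47, adjusted p = 0.00245. All 5 astrocyte libraries were above all 3 NPC libraries, with Astro_129 highest.

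Ccnd2, cyclin D2, was the most abundant gene of that list, at 3669, 3322, 2059, 4738 and 4264 CPM in astrocytes and 1431, 2214 and 2615 in poly(A) NPCs. The groups overlapped, through Astro_G4, and the change was not called (log2 fold change 0.79, adjusted p = 0.123). With sex as a term Ccnd2 was called, at 0.97 (adjusted p = 0.0429). Ccnd3 was at 49.1 to 81.6 CPM in astrocytes and 55.8 to 69.6 in poly(A) NPCs, also not called (−0.06, adjusted p = 0.855). Of the inhibitors that were not called, Cdkn1a, which encodes p21, ran from 323 to 833 CPM in astrocytes and from 474 to 757 in poly(A) NPCs. Log2 fold changes were −0.15, adjusted p = 0.795 for Cdkn1a, −0.28, adjusted p = 0.679 for Cdkn2a and 0.78, adjusted p = 0.227 for Cdkn2b. They were −0.08, adjusted p = 0.921 for Cdkn2c and −2.99, adjusted p = 0.250 for Cdkn1c. Cdkn1c was below 1 CPM in all astrocyte libraries and in NPC_F5 and NPC_mG6, but at 10.8 in NPC_mG2, without which its log2 fold change was 0.60. With the Ch clones as the reference, Cdkn1a was higher in astrocytes instead, at a log2 fold change of 0.90 (adjusted p = 0.0327). With that reference Cdkn2b (2.05, adjusted p = 0.00165), Ccnd2 (1.12, 0.00467) and Cdkn1c (−2.75, 0.0382) were called too, and preparation changed with it. The direction of Cdkn2a and Cdkn2c also turned without NPC_F5, of Cdkn2c without Astro_C2 or Astro_G4 and of Ccnd3 without Astro_129, each at a log2 fold change under 0.07.

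Of 14 pocket proteins, other E2F factors and MuvB subunits, 7 were lower and 2 higher in astrocytes. Rb1, the retinoblastoma protein that holds E2F back, was at 133, 131, 87.3, 157 and 131 CPM in astrocytes and 45.7, 59.3 and 63.6 in poly(A) NPCs, a log2 fold change of 1.19, adjusted p = 0.00688. With the Ch clones as the reference that of Rb1 was 3.47. Rbl2, the pocket protein p130, was the other that rose, by 0.59, adjusted p = 0.0421, a call that was lost without Astro_C2, Astro_G4, Astro_mC3, Astro_mE6 or any NPC library. The call of Rbl2 was also lost with library totals alone (adjusted p = 0.0531), a filter of 1 count (0.106) or sex as a term (0.0681). Largest among the falls were E2f7 (−5.76; −7.10 without Astro_C2), which passed the filter only through NPC libraries and had to differ, the pocket protein p107 gene Rbl1 (−2.43, adjusted p = 0.00118) and the E2F partner Tfdp1 (−1.81, adjusted p = 7.9e-04). Of 41 other replication genes, 36 were lower and 0 higher, with 0 higher at an unadjusted p under 0.05 in edgeR and 0 by DESeq2. The largest falls were those of the replication factor Mcm10 (−6.09, adjusted p = 9.6e-05), the DNA methylation cofactor Uhrf1 (−4.82, adjusted p = 2.6e-05) and the origin subunit Orc1 (−4.49, adjusted p = 3.3e-04). Of 56 other mitotic genes, 54 were lower, led by Ska1 (−8.31), Knl1 (−7.42) and Hmmr (−7.39, adjusted p = 2.5e-05), all of the kinetochore or spindle. On astrocyte counts alone 51 of the 56 passed the filter, and the others, Ska1 and Knl1 among them, had to differ. The 2 that were not called were Zwint, at 217, 231, 213, 220 and 211 CPM in astrocytes and 248, 182 and 204 in poly(A) NPCs, and Ncapd3. The 56 genes had a median log2 fold change of −4.60 and the 41 one of −1.995, against −5.05 for the 46.

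What was left in each astrocyte clone was measured as a percentage of the mean of the 3 poly(A) NPC libraries. The median over the 46 genes was 3.15% in Astro_129, 4.34% in Astro_C2, 3.16% in Astro_G4, 2.26% in Astro_mC3 and 2.63% in Astro_mE6. Over all genes tested the medians were 98.2%, 99.9%, 99.5%, 99.5% and 97.1%. The NPC libraries themselves had medians of 115% in NPC_F5, 97.8% in NPC_mG2 and 84.8% in NPC_mG6. For G1/S the medians were 13.1%, 9.01%, 8.35%, 6.22% and 7.38% in the same order of astrocyte clones. For S phase they were 13.7%, 12.7%, 12.8%, 11.7% and 11.6%, and for mitosis 1.52%, 2.09%, 1.41%, 1.65% and 1.24%. The clones thus ranked differently by phase. Astro_129 was highest in 12 of 16 G1/S genes and 4 of 5 S-phase genes, but in 4 of 25 mitotic genes. Astro_C2 was highest in 14 of the 25 mitotic genes and 1 of the 16 of G1/S. Astro_mE6 was the lowest clone in 18 of the 46.

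Single genes departed from these ranks. Cdc20 was left at 12.04, 16.1, 9.78, 12.97 and 40.6% in the 5 clones, so that Astro_mE6 held the most. Cdt1 was at 50.6, 23.8, 21.9, 9.61 and 8.88%, falling from Astro_129 to Astro_mE6. Cdk2 was left at 86.0, 57.7, 58.1, 52.8 and 48.4%, the highest residual level of any member in every clone. Mki67 was at 0.241, 0.450, 0.138, 0.510 and 0.108% and Top2a at 1.17, 2.47, 1.70, 0.958 and 0.714%, with Astro_mE6 lowest for both. With the Ch clones as the reference the mean of the 5 clone medians was 2.15% in place of 3.11%. In the plot of residual level by clone the mitotic median lies below those of G1/S and S phase in every clone, while single genes of the 3 phases overlap.

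**Figure D3:**
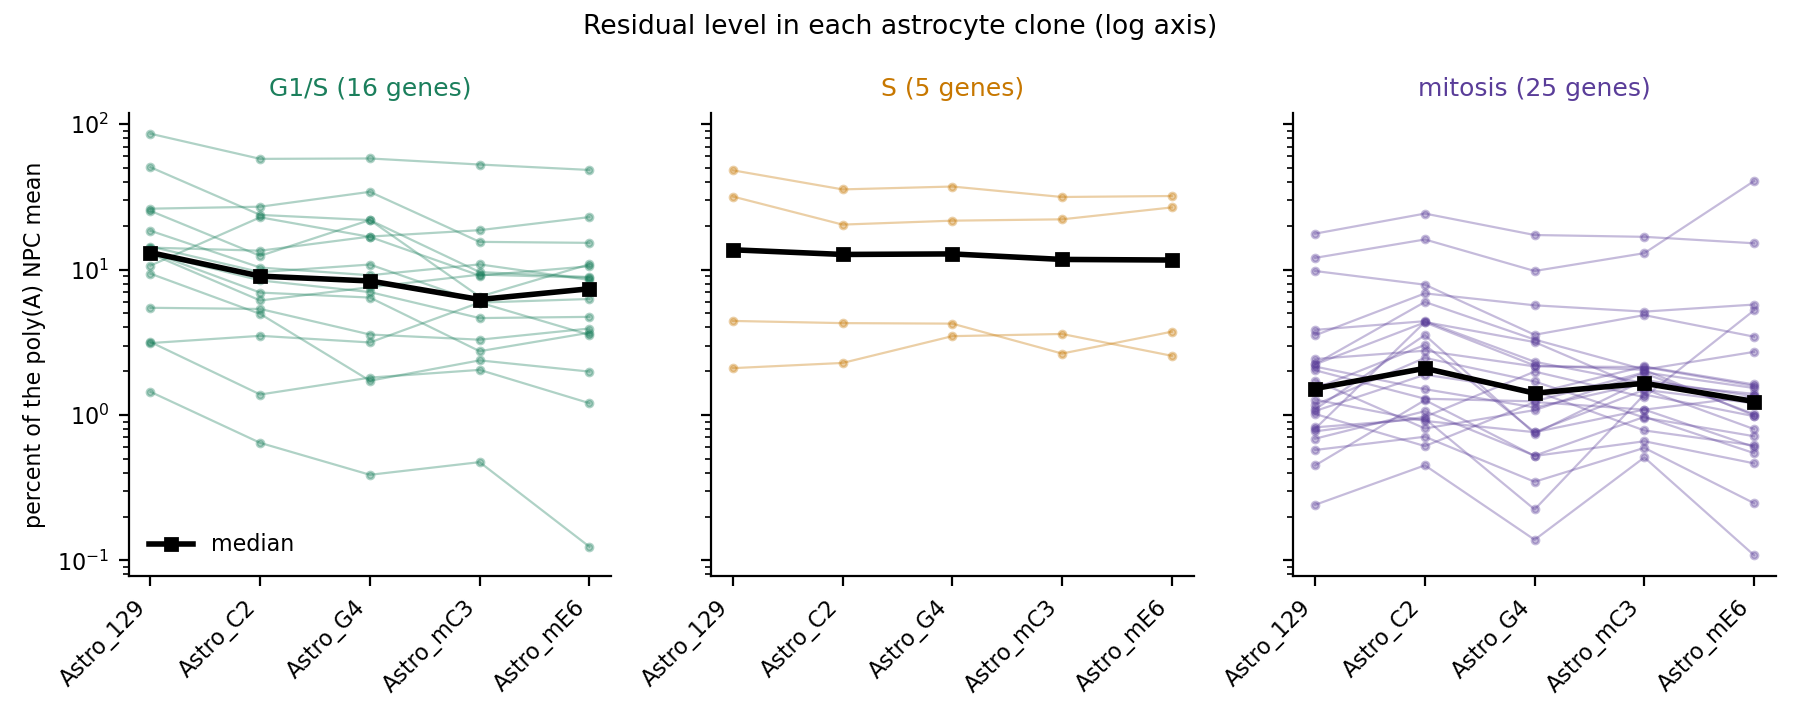
Level of each gene in the 5 astrocyte clones as a percentage of the mean of 3 poly(A) NPC libraries (log axis), by phase, with the median in black. The medians run from 6.22% to 13.1% for G1/S, from 11.6% to 13.7% for S phase and from 1.24% to 2.09% for mitosis.

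Among the 4 Ch clones, all NPCs, 26 of the 46 genes differed at an adjusted p under 0.05 in the edgeR quasi-likelihood test. At an unadjusted p under 0.05 they were 33, for which no share of all genes is given here. The study's methods mention biological replicates that were merged, without naming the libraries, and the labels do not describe the 2 libraries of a Ch clone further. These p values rest on the spread between them. The background at an adjusted p under 0.05 was 2834 of 17095 genes tested (16.6%). The calls were 1 of 16 in G1/S (Mcm7), 3 of 5 in S phase (Rrm2, Tyms and Tk1) and 22 of 25 in mitosis, all but Cenpe, Cenpf and Mki67. Ch3 was the lowest clone in all 26, and the highest was Ch8 in 24 and Ch7 in 2. Counts rested on Ch3: 14 genes were called without its first library and 10 without its second. The changes were small, with a median ratio of highest to lowest clone of 1.41, against 1.30 over all genes tested. Aurka, a centrosome kinase, had the highest ratio, 1.68. Its CPM was 37.1, 36.6, 47.7, 50.8, 55.1, 54.4, 61.4 and 62.5 in the libraries Ch3_1, Ch3_2, Ch5_1, Ch5_2, Ch7_1, Ch7_2, Ch8_1 and Ch8_2 (adjusted p = 5.2e-04). Both Ch3 libraries were below all others and both Ch8 libraries above.

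Top2a was at 426, 397, 580, 499, 584, 598, 647 and 576 CPM in the same order (adjusted p = 0.0123), again lowest in Ch3. Mki67 stood at 202, 191, 283, 195, 262, 215, 304 and 188 CPM and was not called (adjusted p = 0.642). Its first library was higher than the second in all 4 clones, most of all in Ch5 and Ch8. The first library was also higher in all 4 clones for E2f8, Cenpe and Cenpf. Cenpf was at 149, 137, 233, 163, 223, 179, 243 and 135 CPM. Relative to the mean of the 4 clones, the mitotic genes had a median of 77.0% and 75.3% in the Ch3 libraries and of 114% and 118% in those of Ch8. For G1/S the medians were 92.5% and 99.5% in Ch3 and 104% and 106% in Ch8.

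**Figure D4:**
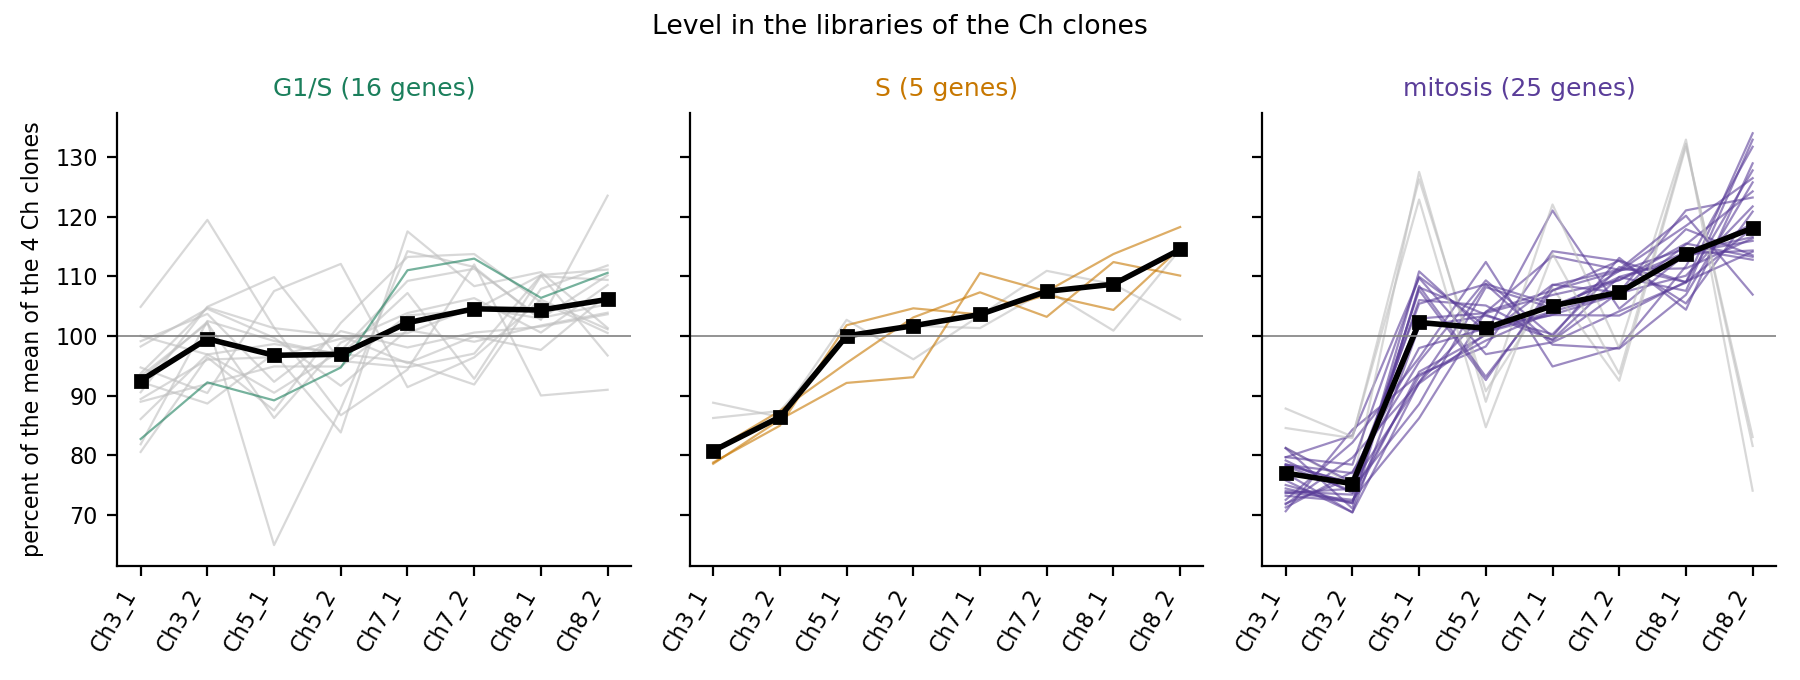
Level of each gene in the 8 libraries of the Ch clones as a percentage of the mean of the 4 clones, by phase, with genes that differed in color, the others in gray and the median in black. Mitotic genes were lowest in Ch3, with medians of 77.0% and 75.3%.

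Alleles were compared for autosomal genes on which every library compared had 20 or more reads assigned to an allele, which left 33 of the 46 genes in astrocytes and poly(A) NPCs. The 13 others had too few reads in astrocytes, among them Mki67, with 19 in Astro_G4. In poly(A) NPCs, 1 of the 33 had unequal alleles, Pcna, beside 2520 of 10096 genes (25%). There were 2 at an unadjusted p under 0.05, for which no share of all genes is given. Pcna had 45.6, 42.3 and 43.0% Cast reads in poly(A) NPCs, with Wilson intervals of 44.8 to 46.4%, 41.2 to 43.4% and 41.9 to 44.0% (log2 Cast over 129 of −0.37, adjusted p = 0.00564). All 3 clones were below 50%. With Astro_G4 or Astro_mE6 left out of the shared fit 2 genes were called. Intervals of this kind cover counting error only.

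In astrocytes, 15 of the 33 had unequal alleles, beside 3748 of 10096 genes (37.1%). The Cast allele was higher for 10 (Ccne2, E2f1, Mcm2, Mcm5, Mcm6, Rrm2, Tyms, Tk1, Cdk1 and Cenpe), beside 1486 of the 10096 genes. The 129 allele was higher for 5 (Pcna, Ccna2, Cdc20, Foxm1 and Birc5), beside 2262 of the 10096. Tk1 had 82.8, 70.9, 61.0, 74.7 and 66.9% Cast reads in the astrocyte clones and 45.1, 47.5 and 47.8% in poly(A) NPCs. All astrocyte clones were above 50% and all NPC clones below (in astrocytes log2 Cast over 129 of 1.34, adjusted p = 0.00241). Cenpe, a kinetochore motor, had 75.6, 72.2, 80.3, 55.6 and 73.7% Cast reads in astrocytes (1.35, adjusted p = 0.00284). Birc5, which encodes survivin, had 31.2, 33.3, 39.1, 36.2 and 17.1% in astrocytes and 50.5, 49.5 and 51.7% in poly(A) NPCs (−1.14, adjusted p = 0.00424). The 5 astrocyte values were below 50% on 23 to 48 reads each. Fitted shares of Cast in astrocytes ran from 28.5% for Ccna2 to 72.5% for Mcm6.

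Calls of 3 of these genes were lost when 1 library or another was left out. Ccna2 had 18.8, 61.3, 25.4, 36.5 and 13.2% Cast reads, with Astro_C2 on the other side of 50%, and its adjusted p of 0.0427 rose above 0.05 without any of the other 7 libraries (log2 Cast over 129 from −1.47 to −0.98). Mcm2 was not called without Astro_129, Astro_C2, Astro_G4 or Astro_mC3 (0.16 to 0.17). Cdc20 had 40.3, 36.5, 39.1, 44.8 and 18.0% Cast reads, lowest in Astro_mE6, and its log2 Cast over 129 of −0.89 became −0.58 without that clone. It was not called without Astro_C2 (−0.92). Around 9 members the median share of Cast over the genes of a 20 Mb window lay outside 40% to 60% in at least 1 clone, and the part of this in their allelic values was not tested. Neighbors of Mcm3, Mcm6, Cenpf and Nuf2, all on chromosome 1, had medians of 33.5% to 35.9% in Astro_129 and of 31.4% to 33.8% in the Ch clones. Those of Ccna2, Cenpe and Kif20a had 66.5%, 66.7% and 65.7% in Astro_G4, and those of E2f2 had 8.55% there. Neighbors of Kif20a had 0.0643% in NPC_mG2, where Kif20a itself had 0.0986% Cast reads. Those of Rrm2 had 100% in Ch5, Ch7 and Ch8. Ccnb2 had 7.82, 52.4 and 47.9% Cast reads in poly(A) NPCs, low in NPC_F5 alone, without such a shift of its neighbors.

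The allelic ratio differed between astrocytes and poly(A) NPCs for 2 of the 33 genes, Mcm5 and Rrm2, beside 109 of 10096 genes (1.08%). At an unadjusted p under 0.05 there were 11, a threshold for which no share of all genes is given here. Mcm5 had 57.8, 63.6, 60.2, 68.9 and 62.5% Cast reads in astrocytes and 43.9, 46.03 and 48.2% in poly(A) NPCs, and the groups did not overlap. The log2 Cast over 129 was 0.97 higher in astrocytes (adjusted p = 0.0402). Rrm2 had 64.1, 67.7, 66.4, 72.4 and 63.7% Cast reads in astrocytes and 52.4, 51.4 and 52.0% in poly(A) NPCs. Wilson intervals for Rrm2 in astrocytes ran from 53.0% at the lowest to 79.5% at the highest, and the difference was 0.91 (adjusted p = 0.0300). Both calls were lost when any one of NPC_F5, NPC_mG2, NPC_mG6, Astro_C2, Astro_G4 or Astro_mE6 was left out. The count was 1 without Astro_G4 and 3 without Astro_129 or Astro_mC3. The direction of the difference stayed the same for both genes in each of these fits, at 0.87 to 1.05 for Mcm5 and 0.81 to 0.96 for Rrm2.

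**Figure D5:**
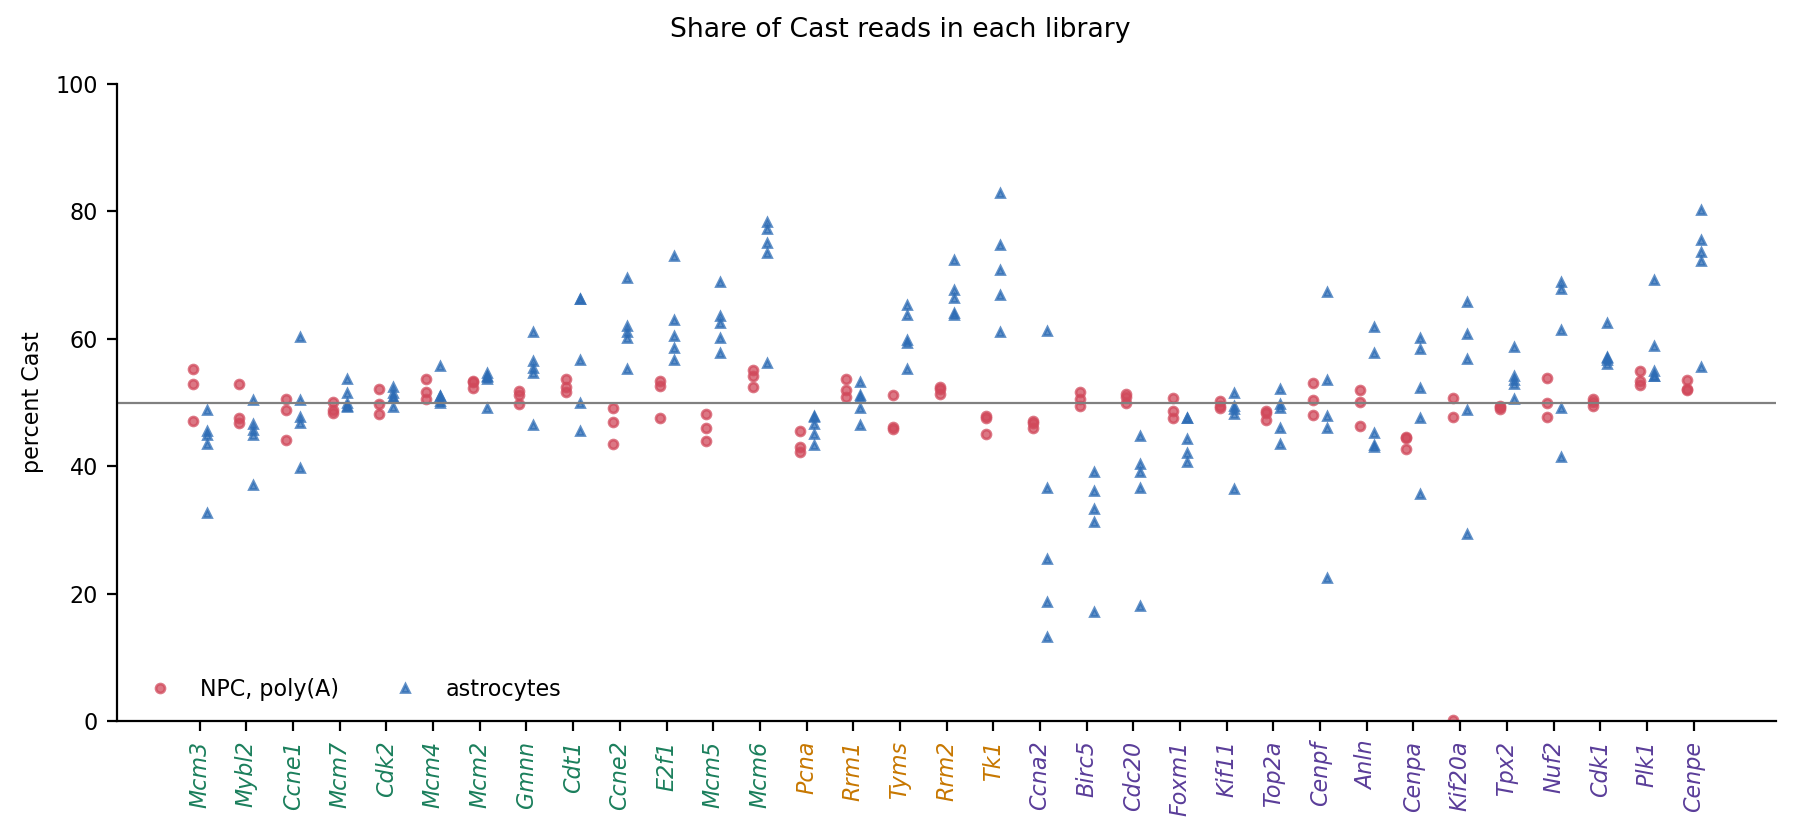
Percent of allele-specific reads from the Cast allele for the 33 genes with at least 20 such reads in every poly(A) NPC library (circles) and astrocyte library (triangles), ordered by phase. Progenitor values cluster near 50%, apart from Kif20a at 0.0986% in NPC_mG2, and astrocyte values spread more widely.

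In the Ch clones all 46 genes had enough reads, and 17 had unequal alleles, beside 3640 of 10301 genes (35.3%). The Cast allele was higher for 2 (Plk1 and Aurkb), beside 1313 of the 10301 genes. The 129 allele was higher for 15, beside 2327 of the 10301. Among these 17, the largest imbalances were those of Nuf2, Mcm3, Ccna2, Cenpf and Mki67, with fitted shares of Cast of 32.1, 33.0, 35.6, 36.0 and 36.2%. In the windows described above, neighbors of Nuf2, Mcm3, Cenpf and Mcm6 had medians of 31.4% to 33.8% Cast in the Ch clones. Neighbors of Ccna2 had 49.9% to 51.5% and those of Mki67 49.2% to 51.3%. The part of the windows in these imbalances was not tested. Mki67 had 35.2, 37.6, 35.5 and 36.6% Cast reads in Ch3, Ch5, Ch7 and Ch8 (adjusted p = 1.3e-04). All 4 clones were alike, and in the poly(A) NPCs Mki67 was at 48.3, 46.8 and 46.6%. Rrm2 had 53.4, 100, 99.9 and 100% in the same clones, with Ch3 alone near balance, and its fit was not called (adjusted p = 0.0761). Others past the threshold were E2f8, Mcm5, Mcm6, Pcna, Tk1, Ccnb1, Bub1b, Cenpa, Ndc80 and Kif11, with fitted shares of 38.1% to 47.8%. Leaving out Ch8 gave 11 calls. Without 1 clone or another, Mcm5, Plk1, Aurkb, Bub1b, Cenpa, Ndc80 and Kif11 were no longer called, at log2 Cast over 129 from −0.38 to 0.15.

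The comparison of cell types rests on 5 and 3 clones with 1 library each, and preparation separates the Ch clones from the others. Few reads were left in astrocytes for 13 members, among them E2f2, E2f8 and Cdc6 of G1/S and otherwise mitotic genes, and these could not be compared by allele there.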

How the data were processed

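Per the labels, RNA was extracted with a column kit and DNase, and 1 microgram was used for poly(A) enrichment or ribosomal RNA depletion. According to the study's methods, libraries were stranded and sequenced as read pairs, and reads were aligned with TopHat2 2.1.0 and Bowtie2 to GRCm38/mm10 with the strain variants masked. The authors split reads by allele with SNPsplit 0.3.2 and deposited, for each gene, the count of read pairs from featureCounts 1.5.1 for the Cast allele, the 129 allele and all reads. They also deposited the allelic ratio as a fraction, which was not used here. The annotation version is not given in the sources used here.

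Here the counts were tested with edgeR 4.0.16 (TMM factors, filterByExpr, quasi-likelihood F test, Benjamini-Hochberg) in R 4.3.3, two-sided. Astrocytes were compared with poly(A) NPCs in a fit of these 8 libraries, and the Ch clones among themselves in a fit of their 8. CPM values are on the TMM scale of each fit. Standard errors were derived from the F statistic. The allelic fit held a Cast and a 129 count for each library, a term for each library and an allele term for each group. It used autosomal genes on which every library had 20 or more reads assigned to an allele, with the Ch libraries summed for each clone. DESeq2 1.42.0 and limma 3.58.1 served as alternatives, beside those named in the closing section. Python 3.11.15 with pandas 2.3.3, numpy 2.4.6, scipy 1.17.1 and matplotlib 3.10.9 did the rest.

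Symbols were found for 32722 of 50600 identifiers and positions for 26022, from RefSeq GRCm38.p6 and a table of gene names. Exon lengths are merged exons of GENCODE vM1, which is of an earlier build than the counts, so ranks of genes per kilobase are approximate. Of 12 CDK inhibitors and D cyclin genes, Cdkn2d had no match. Promoter sequences are from RefSeq GRCm38.p6. No pair of libraries had identical counts.

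Another list of cell-type markers was run and is not reported here. Members and lists were chosen with earlier results of these data known. Named genes are, for each phase, the 3 largest and 3 smallest changes, Mki67 and Top2a, every member past an allelic threshold, and any member that did not change in the common direction. From each other list they are the 3 past the threshold with the largest change, every CDK inhibitor and D cyclin, and the markers of cell types.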

Additional observations from a re-analysis of the deposited data

Results flagged for a closer look

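Within the 5 astrocyte clones, 7 of 46 genes had 1 library far from the others in CPM. For Cdk2 and Mcm7 it was Astro_129, at 64.2 and 23.8 CPM, against 36.2 to 43.4 and 10.9 to 13.97 in the others. For Foxm1 and Bub1 it was Astro_C2, at 15.5 and 0.754, against 9.69 to 11.3 and 0.268 to 0.393. For Cdc20 and Cenpf it was Astro_mE6, at 42.4 and 7.73, against 10.2 to 16.8 and 1.14 to 2.93. For Ccne1 it was Astro_mC3, at 3.59, against 1.89 to 2.15. Each of these libraries was the highest of its group.

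In percent Cast, 5 genes had an astrocyte clone far from the others, of 36 with 20 or more allele-specific reads in at least 4 astrocyte clones. Mcm6 and Kif11 were low in Astro_129, at 56.2% and 36.5%, against 73.4% to 78.4% and 48.1% to 51.5%. Mcm2 was low in Astro_mE6 (49.1%), Mcm4 high in Astro_mC3 (55.7%) and Cdk1 high in Astro_G4 (62.4%). Among the 4 Ch clones, 3 of 46 genes had such a clone. Rrm2 was at 53.4% in Ch3, against 99.9% to 100% in the others, Bub1b was highest in Ch3 (48.6%), and Top2a was highest in Ch5 (49.9%). The 20 Mb window of Rrm2 had a median of 48.5% in Ch3 and 100% in the others. That of Mcm6 had 34.6% in Astro_129 and 48.2% to 50.1% in the other astrocyte clones. For the other genes of this paragraph no window lay outside 40% to 60%. The part of the windows in these values was not tested. Chance alone marks about 1 in 20 groups in this way, a rate that was not measured on these data. The share of all genes marked by the same rule is not given here.

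The allelic ratio differed between the cell types for Mcm5 and Rrm2, by a log2 Cast over 129 of 0.97 and 0.91 in the test of that difference.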

How the results depend on the processing

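The count of cell-cycle genes lower in astrocytes was 46, and 45 to 46 under DESeq2, RLE factors, library totals, a filter of 1 count, a term for sex, the Ch clones as reference and all 12 clones with a term for preparation. Leaving out 1 library it was 44 to 46, with a median log2 fold change from −5.22 to −4.96. The mean residual level ran from 2.89% to 3.35% without 1 NPC library, and was not taken without an astrocyte library. Over 690 pairs of a member and a setting, 681 kept their direction and call, 8 lost the call and 1 turned. Those were Cdk2 and Cdt1, and the turn was Cdt1 against the Ch clones (log2 fold change 0.26). The pathway lists gave 103 calls, and 89 to 112 under the alternatives. With the Ch clones as reference, which also changes the preparation, the median log2 fold change of the members was −5.54 in place of −5.05, the mean residual level 2.15% in place of 3.11% and the count of all genes called 12036 in place of 4644. Cdkn1a turned there to 0.90 and Cdkn2a to 0.27, and Cdkn2b (2.05), Ccnd2 (1.12) and Cdkn1c (−2.75) gained a call, so that 8 CDK inhibitors and D cyclin genes were called in place of 4. Rb1 moved to 3.47 from 1.19, Cdk6 to −5.22 from −3.86 and Aurkb to −8.55 from −7.65, while Mki67 moved against the median, to −7.66 from −8.43. Other named genes that moved by more than 1.5 times with that reference were Mybl2 (−4.52), Cdc6 (−6.29), Gmnn (−2.25), Mcm2 (−4.05), Mcm3 (−4.75), Mcm5 (−5.27), Mcm7 (−3.82), Rrm2 (−5.77), Tyms (−3.65), Tk1 (−5.53), Ccnb1 (−7.73), Ccnb2 (−6.83), Cdk1 (−4.69), Cdc20 (−3.23), Plk1 (−7.62), Bub1b (−6.03) and Cenpa (−5.55). Outside the members they were Ccnd1 (−3.64), E2f7 (−4.82), Uhrf1 (−5.77), Knl1 (−8.18), Rbl2 (1.25), Olig2 (−1.68), Tdgf1 (6.95) and Col1a1 (7.32). With sex as a term they were Ccnd1 (−4.86), Cdk6 (−3.06), E2f7 (−6.73), Cdkn1c (−1.18), Gfap (7.85), Snap25 (3.37) and Col1a1 (5.62). With sex as a term Ccnd2 was called at 0.97. Rbl2 lost its call with library totals (0.53), a filter of 1 count (0.55) and sex (0.57). The cause was not tested. Leaving out 1 library, the count of all genes called ran from 2269 to 4849, lowest with 2 NPC libraries left. Genes without a call that turned there were Cdkn2c, from −0.327 without Astro_mE6 to 0.0673 without Astro_C2, with 0.0495 without Astro_G4 and 0.0444 without NPC_F5. Cdkn2a ran from −0.740 without Astro_C2 to 0.00460 without NPC_F5, Ccnd3 from −0.221 without Astro_C2 to 0.0112 without Astro_129, and Cdkn1c from −3.58 without NPC_F5 to 0.604 without NPC_mG2.

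Members that differed between the Ch clones were 26, and 10 to 29 without 1 library, lowest without a library of Ch3. With the library number as a block, 27 members were called, 26 of them shared. Between clones, deviations of same-numbered libraries correlated from −0.243 to 0.374 over all genes. No range for chance was taken for these correlations, so they do not decide whether the numbers pair libraries. The first library was higher in all 4 clones for Mki67, E2f8, Cenpe and Cenpf. Unequal alleles in the Ch clones were called for 17 members, 11 with limma on log2 ratios and 11 to 18 without 1 clone. In poly(A) NPCs 1 member was called, and 1 to 2 without 1 library. The allelic difference between cell types was called for 2 members, and for 0 to 3 without 1 library. The cause was not tested. In astrocytes 15 were called and 12 to 16 under all settings. Depth limits the allelic tests, in which 33 of 46 members had 20 allele-specific reads in every poly(A) library.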
